A study of Drosophila melanogaster with 24 samples.

Results

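The regions described here are places in the Drosophila melanogaster genome where both CLK pull-downs from fly heads had a peak and neither CYC pull-down from heads did. Peaks of the 8 tagged lists (head and body, CLK and CYC) that shared 1 bp or more were merged into 21802 regions. Of these, 978 met the rule, out of 3704 regions held by both head CLK lists. Body peaks entered the merging but not the rule itself, and mock peaks entered neither. Since merging can join head peaks, body peaks affected the choice slightly. With only the 4 tagged head lists merged, 987 regions met the rule. The flies were 5 to 10 days old and had been entrained at 25 °C to days of 12 h light and 12 h darkness. Chromatin was fixed at ZT13, which falls 1 h into the dark phase. The V5 antibody was used on flies of the Clk strain (CLK groups), on flies of the cyc strain (CYC groups), and on w- flies without a V5 tag (mock). The groups are head CLK, head CYC, head mock, body CLK, body CYC and body mock, with 2 pull-downs in each from separate biological samples, according to the series' design text. Each was prepared from a bulk volume of heads or bodies, so the material of many flies and cell types was pooled, and a site held in fewer cells cannot be told apart from a site held more weakly. How the V5-tagged protein was expressed in these strains is not given in the sources used here.

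CLK (CLOCK) and CYC (CYCLE) are basic helix-loop-helix transcription factors that pair with each other and bind E-box elements. In the evening the pair switches on period and timeless, whose products later return to the nucleus and inhibit it, and also vrille and Pdp1, which feed back on Clk itself. CYC is the common partner, and the textbook form of the complex at a clock gene holds both proteins. The comparison within heads asks which CLK sites had no called CYC peak. A peak list can answer this only as far as its threshold reaches.

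The head lists hold 13729 and 4609 CLK peaks and 12086 and 4848 CYC peaks for replicates 1 and 2, and the head mock lists hold 12082 and 1726. Body lists are shorter, with 1153 to 3967 tagged and 73 to 175 mock peaks. No list gives read counts, so depth is unknown, and a region without a peak may still hold signal under the caller's threshold. Each peak carries 2 unnamed scores of at least 2 on an unknown scale, called here the first and second score. They are the authors' values and are used to describe and rank peaks within a list. Further below, regions are also split by which of the 2 scores is higher, though a shared unit is not known. Shares of regions are given with Clopper-Pearson 95% intervals, which cover counting error only. Regions are not replicates, so differences between libraries were tested over libraries.

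The CLK-without-CYC regions were weak to middling CLK sites by the first score, and by that score none ranked among the best 100 of either head CLK list. Their first score had a median of 6.25 in head CLK replicate 1 (quartiles 3.84 and 10.5, highest 61.68) and 4.81 in replicate 2 (3.38 and 7.11, highest 50.91). The 1399 regions with CYC in 1 head list had medians of 10.8 and 6.58, and the 1327 held by all 4 tagged head lists had 18.6 and 11.3. The median rank of a CLK-without-CYC region lay at 36.3% of the replicate 1 list and 59.3% of the replicate 2 list, with 0 the best. It lay at 19.4% and 43.1% for regions with 1 CYC list and at 9.68% and 23.1% for regions held by all 4 lists. Ranked by the second score, the medians were 50.8% and 52.8% for CLK-without-CYC regions. They were 34.1% and 53.0% with 1 CYC list, and 20.0% and 26.7% for regions held by all 4 lists. The best rank that any of the 978 took was 263 in replicate 1 and 101 in replicate 2. By the first score 10 of them ranked within the best 500 of replicate 1 and 10 within the best 500 of replicate 2. By the second score 45 and 63 did, and the highest second score of the whole replicate 2 list, 129.24, was at one of them. These scores come from the lists that chose the regions and are a description.

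**Figure D1:**
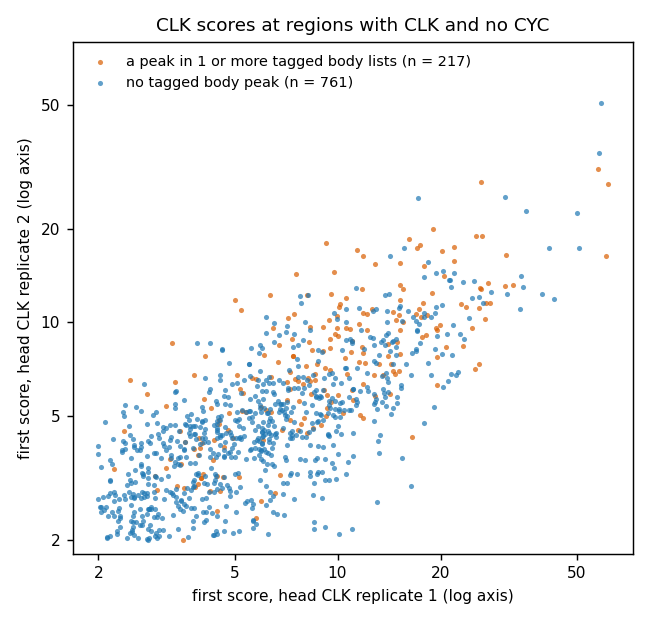
First score in head CLK replicate 1 (x axis, log) and replicate 2 (y axis, log) at the 978 CLK-without-CYC regions, 1 point a region, coloured by whether any tagged body list has a peak there. Scores rise together along the diagonal, up to 61.68 and 50.91, and regions with a body peak lie toward the upper part.

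The rule asks for a peak of both CLK replicates in 1 merged region, with peaks 254 and 322 bp wide. Their midpoints therefore lie close largely by construction. Midpoints of the nearest replicate 1 and replicate 2 peaks lay a median of 29 bp apart (quartiles 13 and 53.8 bp) in CLK-without-CYC regions. The median was 26 bp in regions with CYC in 1 head list and 20 bp in regions held by all 4 lists. Across the 978 regions the first scores of the replicates had a Spearman rho of 0.74. It was 0.81 across regions with 1 CYC list and 0.90 across the 1327 regions held by all 4 lists. These are descriptions across regions, which were chosen on these lists and share their libraries.

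The share of CLK regions without CYC grew as the CLK rank worsened. The 3704 regions held by both head CLK lists were split into 10 bins of about equal size by mean rank, taken as a fraction of each list. In the best bin, 5 of 371 regions (1.35%) had no head CYC peak and 307 (82.7%) were in all 4 lists. In bin 5, counted from the best, 81 of 370 (21.9%) had no CYC peak, and in the last bin 196 of 370 (53.0%) had none. Over all bins the share was 26.4%. A further 1399 regions had CYC in 1 of the 2 lists, 1156 of them in replicate 1 and 243 in replicate 2, with a median CYC first score of 3.59 and a lowest of 2.00. With 1 library left out of the rule, 5048 regions qualified without CLK replicate 2, 2134 without CYC replicate 1, 1529 without CLK replicate 1 and 1221 without CYC replicate 2.

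**Figure D2:**
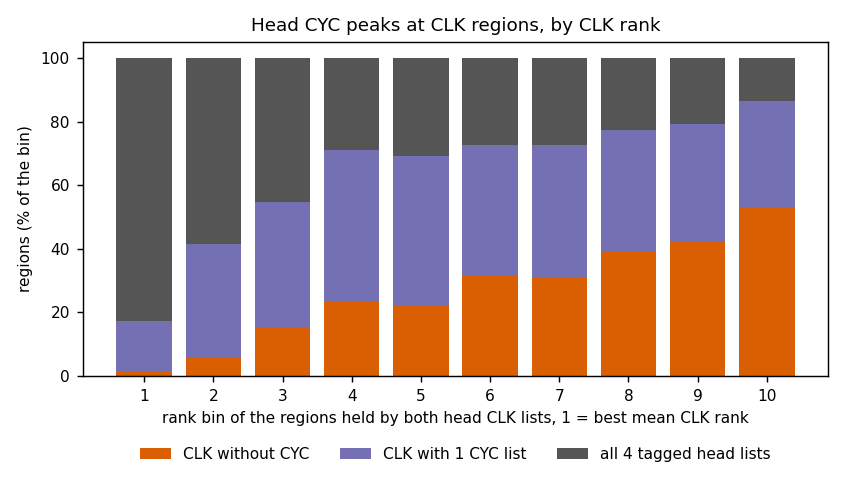
Regions held by both head CLK lists, in 10 bins of mean CLK rank (x axis, 1 = best), as the percentage (y axis) with no head CYC peak, with a peak in 1 head CYC list and with a peak in both. The part without CYC grows from 1.35% in the best bin to 53.0% in the last.

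Head CYC peaks lay outside the CLK-without-CYC regions at a wide range of distances. No other set of regions was measured this way, so closeness cannot be called particular to these. The nearest head CYC peak of either replicate lay a median of 1414 bp away (quartiles 432 and 4965 bp). It lay within 100 bp of 70 regions (7.16%), within 500 bp of 275 (28.1%) and within 1000 bp of 415 (42.4%), so 563 had none within 1000 bp. The 3 regions nearest to the limit were X 9378011 to 9378333, with a gap of 6 bp to a CYC replicate 2 peak, 3L 4342298 to 4342637 and 3L 5921068 to 5921390, each with a gap of 9 bp to a CYC replicate 1 peak. Of the regions with 1 CYC list, 3 had no direct overlap of a CLK and a CYC peak and were joined through other merged peaks. The 3 regions with the smallest direct overlap also count as holding CYC. They began at 25595477 on 3R, where a CLK and a CYC peak shared 3 bp, and at 16960790 on 2R and 21619235 on 3L, with 5 bp shared. The CYC first scores at these 3 small overlaps were 2.35, 3.83 and 2.68. Among the 415 regions with a close CYC peak 28.4% also had a head mock peak (24.1 to 33.0), against 16.0% (13.1 to 19.3) of the other 563.

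The best CLK-without-CYC region by mean rank over the head CLK lists was 2R 20168280 to 20168602. Its first scores were 58.8 in replicate 1 and 50.91 in replicate 2, at ranks 286 and 101, and its second scores were 244.39 and 39.54. No body or mock list had a peak there. The nearest CYC peaks lay 4828 bp (replicate 1) and 10151 bp (replicate 2) away, and the nearest region held by all 4 head lists lay 100344 bp away. The second, 2R 19503794 to 19504116, scored 57.91 and 34.95 at ranks 296 and 195 and also had no body or mock peak, with the nearest CYC peak 11326 bp away. Both lay on the same arm and scored high in both replicates.

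Next came 3R 1089007 to 1089388, with first scores of 57.86 and 31.19, which lay 1180 bp from a region held by all 4 lists and had a body CLK replicate 2 peak scoring 2.05. The fourth, X 17772684 to 17773024, had first scores of 61.68 and 27.82 in head CLK and a peak in all 4 tagged body lists. It lay 321 bp from a region held by all 4 head lists and was also in head mock replicate 1, with a first score of 9.41. 3R 12810611 to 12810933 scored 50.0 and 22.45 with no body or mock peak, and its nearest CYC peak lay 3751 bp away. 3R 777719 to 778041 scored 60.71 and 16.39, lay 92 bp from a CYC replicate 1 peak and had peaks in body CYC replicate 1 (10.04) and head mock replicate 1 (8.54). 2L 2857493 to 2857815, with 50.88 and 17.34, lay 216 bp from a region held by all 4 lists. The last 3 of the best 10 began at 9644534 on 3R and at 3442511 and 6683431 on 2L, with first scores of 30.96 to 41.46 in replicate 1 and 17.39 to 25.33 in replicate 2. None of these 3 had a body or mock peak, and they lay 6385 to 70798 bp from a region held by all 4 lists. Thus 4 of the best 10 lay within 5000 bp of a region held by all 4 lists, against 31.9% of all 978. The other 6 lay 6385 to 100344 bp from one. The best 5 without a mock peak in any list were 2R 20168280, 2R 19503794, 3R 1089007, 3R 12810611 and 2L 2857493, named by their starts.

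Body lists, which entered the merging but not the rule, had peaks at 217 of the 978 regions (22.2%, interval 19.6 to 24.9). The share was 25.4% (23.2 to 27.8) among the 1399 regions with 1 CYC list, an overlapping interval. It was 39.6% (37.0 to 42.3) among those held by all 4. Among all regions held by both head CLK lists, the background used here, it was 29.7%. Body CLK peaks were found at 119 regions in replicate 1 (12.2%, background 18.3%) and 62 in replicate 2 (6.34%, background 12.0%). Body CYC peaks were found at 155 regions in replicate 1 (15.8%, background 24.2%) and 40 in replicate 2 (4.09%, background 12.6%). Body mock replicates 1 and 2 had 1 peak each at these regions (0.102%, interval 0.00259 to 0.568, background 0.378% and 0.324%), and 2 regions had a peak in either mock list (0.204%, background 0.702%). All 4 tagged body libraries thus exceeded both mock libraries, and on the scale log2(regions + 1) the difference was 5.38 (exact permutation test over 15 arrangements, two-sided p = 0.06667, which is the lowest this design can give, n = 4 and 2). The tagged lists were also far longer than the mock lists, with at least 1153 peaks against at most 175.

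In bodies, with the lists at full length, the regions were not found more often by CLK than by CYC beyond the spread between libraries. The CLK counts of 119 and 62 lie inside the CYC counts of 155 and 40. The log2 difference, CLK minus CYC, was 0.12 (exact permutation test, two-sided p = 1, n = 2 and 2, where 0.3333 is the smallest p possible). Its sign turned without body CLK replicate 1 (-0.34) and without body CYC replicate 2 (-0.84), and it was 1.08 without body CYC replicate 1 and 0.59 without body CLK replicate 2. Set against each library's own detection of the regions held by all 4 head lists, the difference was 0.41 (exact permutation test, two-sided p = 1, n = 2 and 2). It was -0.23 without body CYC replicate 2, 0.64 without body CLK replicate 2, 1.06 without body CYC replicate 1 and 0.19 without body CLK replicate 1. The body lists differ in length, with 2433 and 1153 CLK peaks and 3967 and 1276 CYC peaks. With each cut to its best 1153 peaks by the first score, the plain difference was 0.45 (exact permutation p = 0.6667). The relative difference was then 0.63 (exact permutation p = 0.3333, the smallest possible). Either body CLK list had a peak at 143 regions (14.6%, background 21.0%) and either body CYC list at 165 (16.9%, background 25.7%). By region, 52 had body CLK and no body CYC (5.32%, background 3.97%), 74 had body CYC and no body CLK (7.57%, background 8.67%), and 91 had both (9.30%, background 17.0%). A peak in both body CLK lists and neither body CYC list, the same pattern as in heads, was found at 4 of the 978 regions (0.409%, 0.112 to 1.04), near the background of 0.540%. The opposite pattern, both body CYC lists and neither body CLK list, was found at 7 (0.716%, 0.288 to 1.47; background 1.46%).

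**Figure D3:**
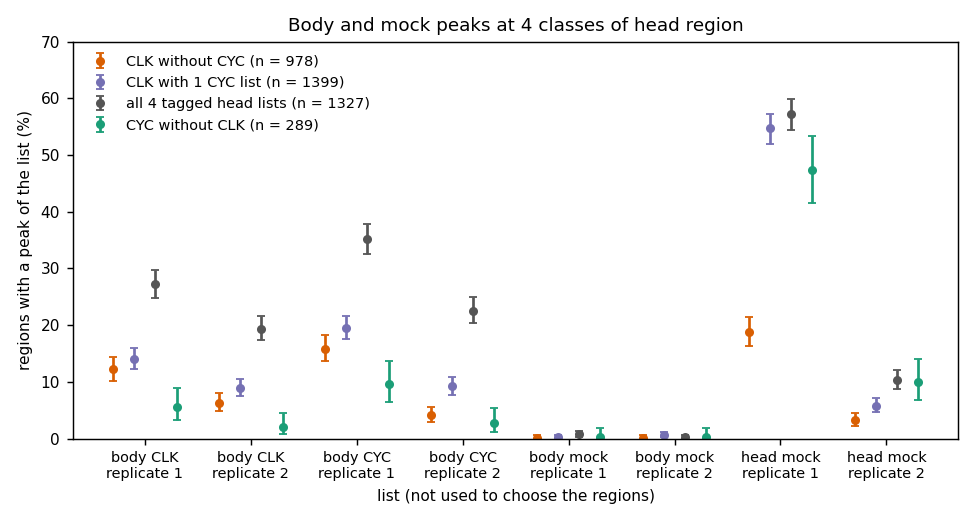
Percentage of regions (y axis, points, with Clopper-Pearson 95% intervals for counting error) that have a peak in each of the 8 body and mock lists (x axis) for 4 classes of head region, CLK-without-CYC first. CLK-without-CYC regions were found in 4.09% to 15.8% by the tagged body lists, in 0.102% by each body mock list, and in 18.8% and 3.27% by the head mock lists.

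Among regions of like replicate 1 CLK score, the shares with a body peak were closest at middle scores, and the intervals of the classes overlapped in each bin given here. At a first score of 8 to 16 in head CLK replicate 1, 84 of 257 CLK-without-CYC regions (32.7%, 27.0 to 38.8) had a body peak, against 36.0% (30.4 to 41.8) of regions held by all 4 lists. At 16 to 32 the shares were 44.2% (34.0 to 54.8) and 40.5% (34.9 to 46.2). At 4 to 8 they were 17.4% (13.6 to 21.8) and 24.4% (19.1 to 30.3), and at 2 to 4 they were 9.96% (6.61 to 14.3) and 23.0% (14.0 to 34.2). At 32 to 64, where the class had 15 regions, they were 26.7% (7.79 to 55.1) and 51.6% (44.8 to 58.4). Binned by the replicate 2 score, CLK-without-CYC regions had a body peak at 8.55%, 21.5%, 43.6% and 66.7% from 2 to 4 up to 16 to 32, the last with 24 regions. Regions held by all 4 lists had one at 13.3%, 25.1%, 40.1% and 52.9% in the same bins. With the head lists at equal length by the second score, 11.1% of 629 regions had a body peak, against 33.4% of those held by all 4 lists. Without CLK replicate 2 the shares were 10.4% and 29.5%. These class differences were not tested over libraries.

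The second score split the regions by what the bodies showed. In head CLK replicate 1 the second score exceeded the first at 488 of the 978 regions, and 10 of these (2.05%, 0.987 to 3.74) had a body peak. Of the 490 regions where it did not, 207 (42.2%, 37.8 to 46.8) had a body peak. In replicate 2 the shares were 14 of 319 (4.39%, 2.42 to 7.25) and 203 of 659 (30.8%, 27.3 to 34.5). Of the 261 regions where the second score was above the first in both CLK lists, 3 had a body peak (1.15%, 0.238 to 3.32), against 196 of 432 (45.4%, 40.6 to 50.2) where it was above in neither.

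The split was also seen at like first scores. Among regions scoring 8 to 16 in replicate 1, a body peak was found at 1 of 92 with the second score above the first and at 83 of 165 (50.3%, 42.4 to 58.2) with it at or below. Put the other way, regions with a body peak had a higher median first score (9.31 in replicate 1, against 5.74 without a body peak) and a lower median second score (3.36, against 6.80). In replicate 2 the first-score medians were 7.35 and 4.38 and the second-score medians 2.88 and 3.58. In the tagged body lists, 13.4% to 25.6% of peaks had the second score above the first. Head CLK replicate 1 had 59.9%, above this range, and head CLK replicate 2 had 22.8%, within it.

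The split was not particular to regions without CYC. Among regions held by all 4 head lists, a body peak was found at 9.16% (6.87 to 11.9) of those with the second score above the first in replicate 1 and at 60.9% (57.4 to 64.4) of the others. For the 1399 regions with 1 CYC list the shares were 2.83% and 44.4%. Head mock peaks were about as frequent on either side of the split in replicate 1, at 21.1% and 21.4% of CLK-without-CYC regions, and stood at 16.0% and 23.8% in replicate 2. The split was noticed in the data and has no test over libraries. What the second score measures, and whether it shares a unit with the first, is not given in the sources used here. The point where the 2 scores are equal therefore has no known meaning.

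**Figure D4:**
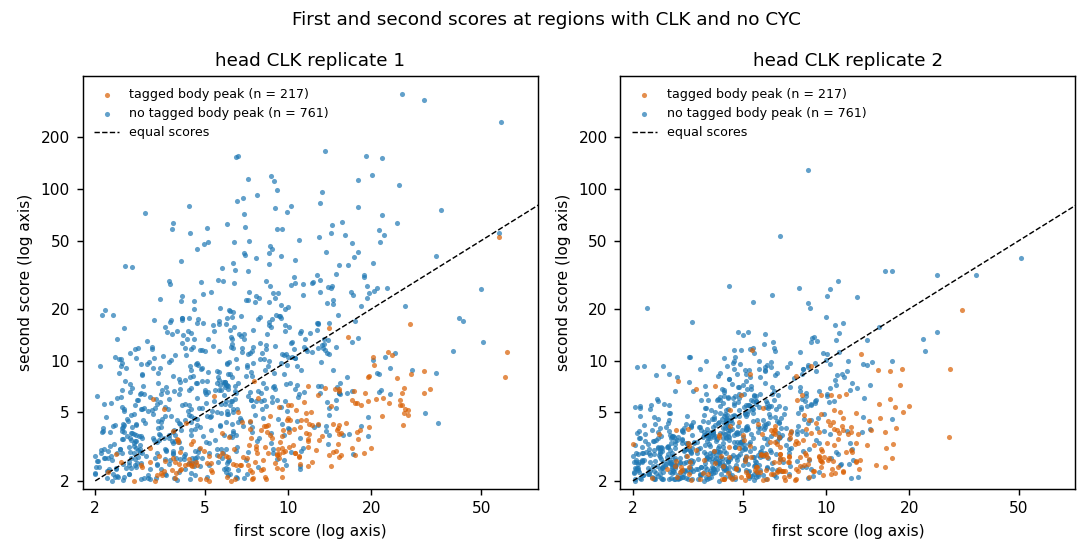
First score (x axis, log) and second score (y axis, log) of the 978 CLK-without-CYC regions in head CLK replicate 1 (left) and replicate 2 (right), coloured by whether any tagged body list has a peak. Regions with a body peak lie almost all below the dashed line of equal scores, with 10 above it in replicate 1 and 14 in replicate 2.

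A peak in all 4 tagged body lists was found at 14 of the 978 regions (1.43%, 0.785 to 2.39), against 6.32% of all regions held by both head CLK lists. It was found at 47 of the 1399 with 1 CYC list (3.36%, 2.48 to 4.44) and 173 of the 1327 held by all 4 (interval 11.3% to 15.0%). At the 14 CLK-without-CYC places both proteins were called in bodies, while of the tagged head lists only those of CLK had peaks inside the region. Among the best 10 of the 14 by head CLK rank, the nearest head CYC peak lay 246 to 13488 bp away. X 17772684 to 17773024 led the 14 by head CLK rank and lay 321 bp from a head CYC peak. Its body CLK peaks scored 38.96 and 23.45 and its body CYC peaks 17.11 and 8.84 by the first score. 3R 19612663 to 19612991, with head CLK scores of 26.31 and 28.2, had body CLK peaks scoring 19.46 and 18.61 and body CYC peaks scoring 8.55 and 8.68. It stood 62958 bp from the nearest region held by all 4 head lists and at least 13488 bp from a head CYC peak, and no mock list had a peak there.

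3R 1190480 to 1190809 had head CLK scores of 13.26 and 7.35. In bodies its CLK peaks scored 32.74 and 18.04 and its CYC peaks 18.48 and 17.34. It ranked 100 and 103 in the body CLK lists and 2041 and 1752 in the head CLK lists. Head mock replicate 2 had a peak there, scoring 2.74. X 19047480 to 19047864, which stood 105969 bp from a region held by all 4 head lists, had head CLK scores of 10.62 and 11.99. Its body CLK scores were 17.1 and 10.85, its body CYC scores were 22.42 and 9.88, and it had no mock peak. 3R 296433 to 297288 had the highest body CYC replicate 1 score of any CLK-without-CYC region, 30.31, beside 11.66 in replicate 2, and head CLK scores of 19.36 and 9.61. The rest of the best 10 of this set began at 3567515 on X, at 1089587 on 3R, at 4225659 and 17951354 on 3L, and at 6046217 on 2L. Their body scores ran from 7.32 to 24.38 in CLK and from 3.31 to 15.01 in CYC. These 10 regions lay on 4 different arms, 321 to 105969 bp from the nearest region held by all 4 head lists.

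Head mock peaks, from flies without a tag, were found at a smaller share of CLK-without-CYC regions than of the other classes of head region. Mock replicate 1 had a peak at 184 of the 978 (18.8%, 16.4 to 21.4; background 46.1%) and replicate 2 at 32 (3.27%, 2.25 to 4.59; background 6.75%). Regions held by all 4 head lists had mock peaks at 57.2% (54.5 to 59.9) in replicate 1 and 10.3% (8.74 to 12.1) in replicate 2. Either mock list had a peak at 208 of the 978 (21.3%, 18.7 to 24.0; background 48.2%). The other 770 had none. With 2 mock libraries no test over libraries was made. At CLK first scores of 8 to 16 in replicate 1 either mock list had a peak at 24.5% (19.4 to 30.2) of CLK-without-CYC regions and 54.3% (48.4 to 60.2) of regions held by all 4.

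The share with a mock peak moved with head CYC replicate 1. Among regions with a single CYC list, mock replicate 1 had a peak at 61.2% (58.4 to 64.1) of the 1156 where that list was CYC replicate 1. It had one at 23.5% (18.3 to 29.3) of the 243 where it was replicate 2. When CYC replicate 1 was left out of the rule, 2134 regions qualified and 43.5% of them had a mock peak, against 54.6% of regions with both CLK lists and CYC replicate 2. With the 4 head lists at equal length the shares were 34.5% and 60.6%. The part of CYC replicate 1 in the difference was not tested further. The mock peaks at CLK-without-CYC regions had a median first score of 2.94 in replicate 1 and 3.22 in replicate 2, against 3.29 and 3.24 over the whole mock lists.

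The 978 regions were spread over the 5 long chromosome arms, and none lay on chromosome 4 or a heterochromatic scaffold. Arm 3R held 248 (25.4%, 22.7 to 28.2) and X held 202 (20.7%, 18.2 to 23.3). Arm 2R had 188 of them (19.2%), 2L had 173 (17.7%) and 3L had 167 (17.1%). The X share was 14.4% (12.5 to 16.4) among regions held by all 4 lists and 9.00% (5.96 to 12.9) among the 289 regions with CYC in both head lists and CLK in neither. The whole lists differed in the same direction, with 18.0% and 16.0% of head CLK peaks on X, against 12.9% and 12.7% of head CYC peaks. Without CYC replicate 1 the X share was 17.9%, against 14.8% for regions with both CLK lists and CYC replicate 2. Chromosome 4 held 0 of the 978 (upper bound 0.376%), 27 of the 1327 regions held by all 4 lists (2.03%, 1.35 to 2.95) and 32 of the 289 with CYC only (11.1%, 7.70 to 15.3). All 27 had a head mock peak. The rule gave 23 chromosome 4 regions without CYC replicate 1, 73 without CLK replicate 2 and 1 with the head lists at equal length by the first score.

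CLK-without-CYC regions had a longer median distance to the regions held by all 4 lists than these had to each other. The median distance to the nearest such region was 16462 bp (quartiles 3103 and 51069 bp) for the 978. It was 12874 bp for regions with 1 CYC list and 22660 bp for those with CYC only. Regions held by all 4 lists lay a median of 9145 bp from the next of their own class. Other settings changed both the CLK-without-CYC class and the set that distances were measured to. Without CYC replicate 2 the median was 6358 bp for 1221 regions, measured to 2483 regions. With head peaks at or above the median first score it was 31514 bp for 1279 regions, measured to 805. At equal length by the second score it was 39131 bp for 629 regions, measured to 604. Of the 978, 139 (14.2%) lay within 1000 bp, 312 (31.9%) within 5000 bp and 100 (10.2%) over 100000 bp away. For regions with 1 CYC list these shares were 16.2%, 34.3% and 9.80%. For regions held by all 4 lists, measured to the next of their own class, they were 19.6%, 40.5% and 9.65%. The share over 100000 bp away was thus close to that of both other classes. The nearest of the 978 were X 13830787 to 13831163 at 3 bp, X 9378011 to 9378333 at 6 bp and 3R 22291813 to 22292179 at 12 bp. Their head CLK scores were 21.24 and 13.64, 11.39 and 7.11, and 8.15 and 6.52. The 139 regions within 1000 bp had a body peak at 23.0% (16.3 to 30.9) and a head mock peak at 24.5% (17.6 to 32.5), against 22.1% (19.3 to 25.0) and 20.7% (18.0 to 23.6) of the 839 farther away. Their median CLK first scores were 8.19 and 5.15, against 6.08 and 4.79.

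**Figure D5:**
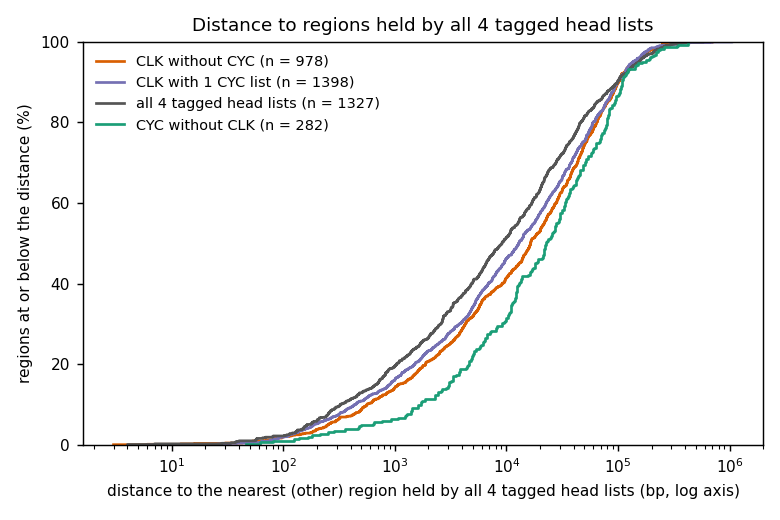
Cumulative percentage of regions (y axis) by distance to the nearest region held by all 4 tagged head lists, or to the next such region for that class itself (x axis, bp, log), for 4 classes of head region. The line of the 978 CLK-without-CYC regions passes its middle at 16462 bp, to the right of regions held by all 4 lists (9145 bp) and to the left of regions with CYC only (22660 bp).

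Clusters of CLK-without-CYC regions, with at most 5000 bp between neighbours, were small. There were 112 clusters, which held 252 of the 978 regions (25.8%, 23.1 to 28.6), and 91 of them were pairs. Of the 1327 regions held by all 4 lists, a more numerous class, 40.5% (37.9 to 43.2) were in clusters, with up to 12 in a cluster. Of the 1399 with 1 CYC list, also more numerous, 33.8% (31.3 to 36.4) were, with up to 10. Of the 289 with CYC only, a smaller class, 9.00% (5.96 to 12.9) were. Without CLK replicate 2, which left 5048 CLK-without-CYC regions, 61.1% of these were in clusters, and without CYC replicate 1 42.2% of 2134 were. The longest run of CLK-without-CYC regions, on 3R from 17405256 to 17420732, had 5 regions within 15476 bp. Their first scores were 2.55 to 6.7 in CLK replicate 1 and 2.74 to 5.6 in replicate 2. The middle region, 3R 17413059 to 17413648, had peaks in both body CLK lists (9.0 and 5.71) and in neither body CYC list. The region at the far end had a head mock replicate 1 peak scoring 3.55.

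Of the 5 clusters of 4, the first by position was on 2L from 9506087 to 9513402. Its regions scored 17.86, 11.6, 3.68 and 2.24 in CLK replicate 1 along the arm and had no body or mock peak, and the first of them lay 242 bp from a region held by all 4 lists. The next was on 3L from 556078 to 568291, where 3 of the 4 regions had a head mock replicate 1 peak, scoring 2.5 to 4.38, and CLK replicate 1 scores ran from 2.5 to 10.59.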

How the data were processed

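Peak lists of 12 pull-down libraries were used, and the 12 input libraries have no list of their own here. Per the submitters' processing notes, the aligner was Bowtie 0.12.7 and the genome build dm3. Which program called the peaks is not given in the sources used here. Every list, deposited by the authors per library without pooling, gives chromosome, start, end, midpoint and 2 values per peak without a name. Both are treated as a score in the authors' unit, with depth unknown. Positions are in dm3, as in the files. No gene annotation of that build was used, so regions are named by position.

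Head chromatin was sonicated for 6 rounds and body chromatin for 4, after 10 min in 1% formaldehyde, per the labels' protocols, so sonication follows tissue.

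Peaks sharing 1 bp or more (end position not part of the peak) were merged. Ranks are by the first score unless stated. A region takes its highest first score and its highest second score per list, each on its own. These can come from different peaks, as 62 of the 978 regions held 2 or more peaks of a head CLK list. Clusters allow gaps of 5000 bp. Counts of regions per body library were compared on log2(regions + 1) by exact two-sided permutation over libraries. The relative measure divides regions + 1 by regions held by all 4 tagged head lists + 1. These tests were not adjusted for one another. Python 3.11.15, numpy 2.4.6 and scipy 1.17.1 were used; merging was checked on simulated lists.

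Named regions are the best 10 by mean head CLK rank, the best 5 without a mock peak, the best 10 with all 4 body lists, 3 clusters, the 3 nearest to regions held by all 4 lists, and those nearest to the rule's limit. The regions, classes and measures were chosen with earlier results of these data known. Alternatives varied overlap, lists merged, threshold, list length, margin to CYC, mock removal, libraries, arms and cluster gap.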

Additional observations from a re-analysis of the deposited data

How the results depend on the processing

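The number of CLK-without-CYC regions stayed within 1.5 times of 978 under 9 of 14 alternatives. It was 563 when a CYC peak within 1000 bp also excluded a region and 629 with the head lists at equal length by the second score. Without a single head CLK or CYC replicate it ran from 1221 to 5048, since fewer lists then had to agree; it was 1529 and 5048 without CLK replicates 1 and 2, and 2134 and 1221 without CYC replicates 1 and 2. Of the 814 regions found with the head lists at equal length by the first score, 446 overlapped the 978, and of 1279 above the median first score 609 did.

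The share with a head mock peak, 21.3%, was 34.4% above the median first score of head peaks (11.6% when body and mock lists were cut there too, an alternative chosen after seeing the data). It was 34.5% and 38.6% with the head lists at equal length by the first and second score, and 16.0% with no CYC peak within 1000 bp. It ran from 3.27% to 43.5% without single replicates, lowest without mock replicate 1 and highest without CYC replicate 1. The share with a body peak, 22.2%, was 11.1% at equal length by the second score and ran from 10.4% (without CLK replicate 2) to 28.0% (without CYC replicate 2) without single replicates. The median distance to regions held by all 4 lists, 16462 bp, was 31514 bp above the median score (31676 bp with all 12 lists cut), 26488 and 39131 bp at equal length by the first and second score, and 29330 bp with no CYC peak within 1000 bp. It ran from 6358 bp (without CYC replicate 2) to 16389 bp (without CLK replicate 1) without single replicates. The share in clusters, 25.8%, was 34.1% above the median score with either set of lists cut, 20.0% at equal length by the second score, 16.3% with no CYC peak within 1000 bp, and 15.6% and 33.4% with cluster gaps of 2000 and 10000 bp. It ran from 32.1% to 61.1% without single replicates, highest without CLK replicate 2. The set that distances were measured to changed as well. It held 1327 regions in the main setting and 805 with head peaks above the median score. At equal length by the first and second score it held 900 and 604, and without CYC replicate 2 it held 2483. The cause of the shifts in all these measures was not tested.

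With replicate number as a block the body differences were 0.12 for CLK minus CYC, 0.41 relative to regions held by all 4 lists (both exact permutation p = 1) and 5.38 for tagged minus mock (exact permutation p = 0.1111, the smallest possible). The labels do not say what a number shares; over the 978 regions the replicate 1 minus 2 difference in detection correlated at 0.17 between body CLK and body CYC. Without single libraries the CLK minus CYC difference ran from -0.84 to 1.08, the relative one from -0.23 to 1.06 and the tagged minus mock one from 5.08 to 5.72. Reading end positions as inclusive, an alternative chosen after seeing the data, gave 979 regions. Depth is unknown, so absent CYC peaks are limited by list thresholds.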

Other observations

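The following regions were chosen after their values were seen, for their second score. The peak with the highest second score of the whole head CLK replicate 2 list, 129.24, lay in the CLK-without-CYC region 3L 15261813 to 15262135, where its first score was 8.61 at rank 1486. In replicate 1 the same region scored 4.23 by the first and 5.57 by the second score. No body or mock list had a peak there, and the nearest head CYC peak lay 28341 bp away. X 2291516 to 2291838 had second scores of 40.9 and 52.86, beside first scores of 9.42 and 6.8, with no body or mock peak and the nearest CYC peak 13445 bp away. In replicate 1 the highest second scores of the class were 355.59 at 2R 18759858 to 18760184, which lay 253 bp from a region held by all 4 head lists, and 329.69 at 2L 3442511 to 3442833, which had a CYC replicate 1 peak 1134 bp away. Of the 45 CLK-without-CYC regions within the best 500 places of replicate 1 by the second score, 0 had a body peak and 8 had a head mock peak. By the same measure 0 of 121 regions with 1 CYC list and 42 of 219 regions held by all 4 lists had a body peak. Of the 63 within the best 500 of replicate 2 by that score, 3 had a body peak and 4 a head mock peak, against a body peak at 3 of 79 regions with 1 CYC list and 146 of 338 held by all 4 lists. By the first score 10 regions were within the best 500 of each list, of which 3 and 4 had a body peak in replicates 1 and 2.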
